A study of Mus musculus with 2 samples.

Results

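A set of 6 genes of the mouse counterpart of the Prader-Willi region, Snrpn, Ndn, Magel2, Mkrn3, Peg12 and Ube3a, was compared between E14 embryonic stem cells (ESCs) and E14-Sox2 TA/WT cells by RNA-seq. They were chosen by name, as the rows of the deposited gene table that carry these 6 symbols among 24532 rows, and each symbol matched a single row. The choice was made with earlier results of these data known. E14 is an established mouse ESC line, and the labels give it as wild type. E14-Sox2 TA/WT cells (the TA/WT clone), labelled Sox2 T258A, are a clone of E14 that was expanded from a single cell after CRISPR/Cas9 editing with a single-stranded DNA donor. In this clone 1 allele of Sox2 carries alanine in place of threonine 258, a residue that can hold the sugar O-GlcNAc, and the other allele is wild type. By the study's methods the medium of E14 held serum and leukemia inhibitory factor (LIF). The clone was normally grown with these and, in addition, 2i (PD0325901, a Mek inhibitor, and CHIR99021, a Gsk3 inhibitor), and was used some passages after 2i had been taken away. Each genotype has 1 library of polyadenylated RNA, and genotype, clone and culture history cannot be told apart. No difference below has a replicate check, no p-value can be given, and the 95% intervals cover the counting of reads alone.

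Genomic imprinting leaves a gene active on the copy from 1 parent and silent on the other, and the Prader-Willi region is a textbook example. Snrpn, Snurf, Ndn, Magel2, Mkrn3 and Peg12 are transcribed from the paternal chromosome, under an imprinting centre at the start of Snurf and Snrpn whose maternal copy is methylated in the egg. Ube3a lies at the other end and is maternal in neurons, where the long antisense transcript Snhg14 runs across its paternal copy, while most other cells use both copies. In people, loss of the paternal genes leads to Prader-Willi syndrome and loss of maternal UBE3A to Angelman syndrome. The table does not split reads by allele, so every level below is the sum over both copies.

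All 6 genes lie on chromosome 7 and span 3.24 Mb in the RefSeq annotation of GRCm38.p6, the build that is also called mm10. Snrpn (59982495 to 60450177, minus strand) and Ube3a (59228750 to 59310837, plus strand) form 1 group. Ndn (62348277 to 62349928, plus strand), Magel2 (62376979 to 62381640, plus strand), Mkrn3 (62417593 to 62420153, minus strand) and Peg12 (62461871 to 62464510, minus strand) form the other, 2.34 Mb from the Snrpn and Snurf start. These 4 genes lack introns in every GENCODE transcript and fit within 116 kb, with gaps of 27.1, 36.0 and 41.7 kb between them. The promoter stretches of the genes that differed most in level (Snrpn and Magel2) are shown with that of Ndn, the intronless neighbour of Magel2, each from 100 bases before to 30 bases after the RefSeq start, 5′ to 3′ on the strand of the gene. Capitals mark GCGGCA, the reverse complement of TGCCGC, which is the core of the site of the imprint-keeping zinc finger protein Zfp57, and CGCATGCG, the palindromic core of the Nrf1 site.
Snrpn and Snurf, main start, chr7:60005170-60005299, minus strand: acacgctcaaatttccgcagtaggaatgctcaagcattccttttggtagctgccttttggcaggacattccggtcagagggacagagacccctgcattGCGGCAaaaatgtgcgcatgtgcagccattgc
Snrpn, first upstream start, chr7:60047949-60048078, minus strand: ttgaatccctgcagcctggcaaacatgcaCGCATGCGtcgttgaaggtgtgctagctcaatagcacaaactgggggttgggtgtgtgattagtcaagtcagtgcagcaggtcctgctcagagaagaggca
Snrpn, middle upstream start, chr7:60140196-60140325, minus strand: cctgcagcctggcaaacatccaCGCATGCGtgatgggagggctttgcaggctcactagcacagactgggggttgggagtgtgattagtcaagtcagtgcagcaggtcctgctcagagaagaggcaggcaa
Snrpn, far upstream start, chr7:60450148-60450277, minus strand: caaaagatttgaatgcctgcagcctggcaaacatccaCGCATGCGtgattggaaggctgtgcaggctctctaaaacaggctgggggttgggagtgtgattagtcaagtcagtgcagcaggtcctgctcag
Ndn, chr7:62348177-62348306, plus strand: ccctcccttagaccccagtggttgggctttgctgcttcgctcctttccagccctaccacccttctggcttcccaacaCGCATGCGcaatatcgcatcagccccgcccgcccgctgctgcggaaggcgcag
Magel2, chr7:62376879-62377008, plus strand: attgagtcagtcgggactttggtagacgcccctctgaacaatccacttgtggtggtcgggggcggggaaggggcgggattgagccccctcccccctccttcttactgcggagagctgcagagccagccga

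The main start of Snrpn is shared with Snurf and held the TGCCGC core, which 11.6% of 32851 RefSeq promoter windows of the same 300 bases (250 before and 50 after the start, both strands searched) also held. CGCATGCG was found in 1.87% of those windows, in all 4 Snrpn windows and in that of Ndn. This motif was chosen after seeing the data, so its share over all windows is a description and no test. In the main Snrpn window the motif lay 36 bases after the start, just past the stretch shown. It was not among the letters of the windows of Magel2, Mkrn3, Peg12 or Ube3a. The 3 upstream Snrpn windows matched each other at 84.1 to 88.4% of aligned bases, whereas the main start matched them over at most 31 bases. CGCATGCG in the 3 upstream windows is therefore not 3 separate finds. The Sox motif cores ACAAAG (in 18.7% of windows) and ACAATG (in 12.6%) were absent from the main windows of all 6 genes, and ACAAAG was found in the middle upstream window of Snrpn. CpG dinucleotides numbered 29 in the window of Ube3a, 15 in Mkrn3, 12 in Peg12, 11 in Ndn, 10 in Magel2 and 7 at the main Snrpn start, beside a median of 7 over all windows. None of these matches shows that a factor was bound in these cells.

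The E14 library held 60263536 reads counted to genes, and that of the TA/WT clone 44609228. Sox2 itself had 28936 and 14270 reads (TPM 373 and 274), and since the clone keeps both alleles this does not check the edit. The ESC label was checked against 8 markers, all of which had reads in both libraries, with Pou5f1 at a TPM of 1730 and 1760. Nanog was the only one past 2-fold, at 527 and 251. TPM scales reads to transcript length and to a common library sum, so that genes can be compared with each other. The study's own filter, a TPM of 10 or more in either library, left 9094 genes, of which 4.17% were more than 2-fold higher and 4.07% more than 2-fold lower in the TA/WT clone.

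All 6 genes had a higher TPM in the TA/WT clone than in E14. Among the 13729 genes with a TPM of 1 or more in either library, 52.4% were higher. The members were chosen with earlier results of these data known and belong to 1 cluster. The shares of all genes given here are therefore a description and no test of the members. Snrpn and Magel2 were several-fold higher, and Ndn, Ube3a, Peg12 and Mkrn3 stayed under 2-fold. Under the study's filter 3 members were counted (Snrpn, Ndn and Ube3a) and 1 of them, Snrpn, was more than 2-fold higher, beside the 4.17% of all genes. At a TPM of 1 or more in either library all 6 members were counted, 2 were more than 2-fold higher, beside 6.45% of all genes, and none was more than 2-fold lower, beside 9.95%. Magel2 passes the latter filter only through the library in which it is high, so it had to differ to be counted. With a TPM of 1 or more in E14 required instead, 5 members were counted and 1 was more than 2-fold higher, beside 4.33% of all genes.

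**Figure D1:**
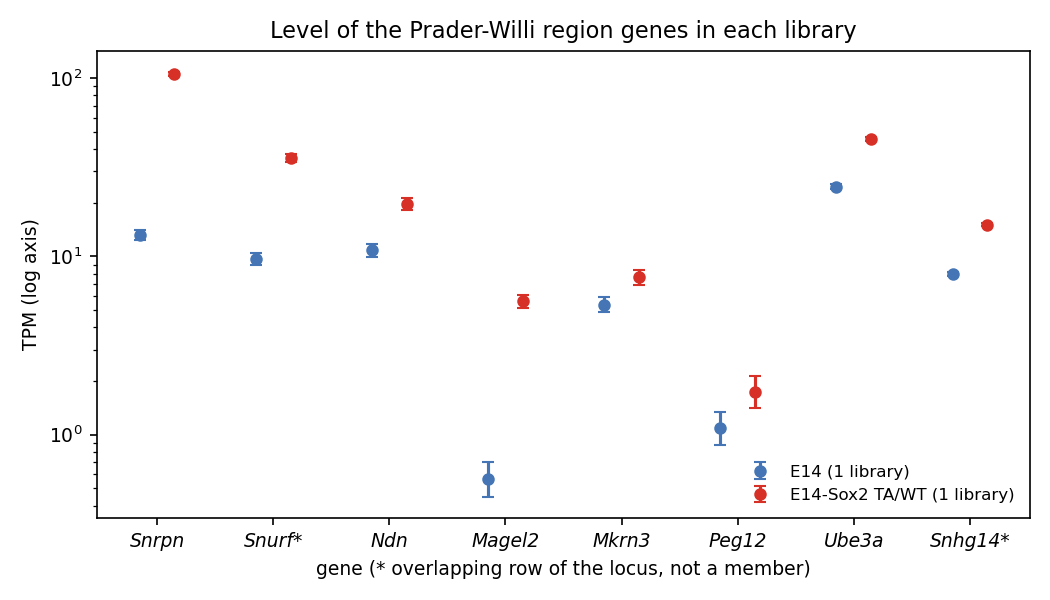
TPM (log axis) of the 6 genes and of Snurf and Snhg14, which overlap Snrpn and Ube3a, in the E14 library (blue) and the E14-Sox2 TA/WT library (red), with exact Poisson 95% intervals that cover counting error only. The red point is above the blue point for every gene, from 13.2 to 105 for Snrpn and from 5.36 to 7.62 for Mkrn3.

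The order of the genes by level differed between the libraries. In E14 it ran from Ube3a (TPM 24.5) through Snrpn (13.2), Ndn (10.8), Mkrn3 (5.36) and Peg12 (1.09) to Magel2 (0.565). In the TA/WT clone Snrpn (105) passed Ube3a (45.5), and Magel2 (5.62) passed Peg12 (1.74), while Ndn (19.7) and Mkrn3 (7.62) kept the third and the fourth place. The counting intervals of neighbours in each order did not overlap. How far the levels would spread between cultures was not measured.

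Snrpn encodes SmN, a protein of the spliceosome core that takes the place of SmB in some tissues, and its transcripts also carry the frame of the small protein Snurf. Snrpn had 868 reads in E14 and 4595 in the TA/WT clone, or a TPM of 13.2 (12.3 to 14.1) and 105 (102 to 108). The level was thus 7.96-fold higher (7.41 to 8.57), a log2 ratio of 2.99, and 0.779% of the genes with a TPM of 1 or more had a higher ratio. It was the only member to reach a TPM of 100, and did so in the TA/WT clone. Snurf, counted on a row of its own, went from 618 to 1519 reads and from a TPM of 9.71 to 35.6, which is 3.67-fold (3.34 to 4.03). The Snurf row starts at the main start above, which is 1 of the 4 Snrpn starts, and both rows end at the same base, so how the authors' tools split reads between them can move each value.

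Summed over both rows, Snrpn and Snurf had 1486 and 6114 reads and a TPM of 22.9 and 141, a 6.14-fold difference with a log2 ratio of 2.62 (2.54 to 2.70). The sum does not depend on that split if each read was counted once, and its ratio must lie between those of the separate rows. The Snrpn row took 58.4% of the summed reads in E14 (Clopper-Pearson interval 55.9 to 60.9) and 75.2% in the TA/WT clone (74.1 to 76.2). The share thus differed beyond counting error, and whether other starts or exons were used was not tested. Of the 2125 stretches of 31 bases in the annotated Snrpn transcripts, 34.5% also occur in other annotated transcripts, mainly Gm38393 and Snurf at the same locus and Gm5802, a processed pseudogene elsewhere. Snrpb, which encodes SmB, had a TPM of 317 in E14 and 379 in the TA/WT clone (log2 ratio 0.26). The 7 genes of the Sm core without Snrpn were 4 higher and 3 lower with a median log2 ratio of 0.03 (Snrpd3 and Snrpe, the closest to 0, changed sign under other scalings), and none passed 2-fold.

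Magel2 and Ndn are intronless genes of the MAGE family, whose proteins bind E3 ubiquitin ligases. Magel2 works with Trim27 on the retromer and WASH pathway of endosomal recycling, and necdin, the product of Ndn, is known for holding back the cell cycle through E2f1 and p53. Magel2 had 83 reads in E14 and 553 in the TA/WT clone, or a TPM of 0.565 (0.45 to 0.7) and 5.62 (5.16 to 6.11). It was the lowest of the 6 genes in E14, and the difference was 9.95-fold (7.89 to 12.7), with a log2 ratio of 3.31. Of the genes with a TPM of 1 or more in either library, 0.568% had a higher ratio. Magel2 enters that set only through the TA/WT clone, so its rank is no support for the difference. The interval of its ratio overlapped that of Snrpn, so the order of these 2 is not settled by the reads. Adding 1 to both TPM values, which weighs down low genes, took the log2 ratio of Magel2 to 2.08.

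Ndn, whose start lies 27.1 kb and its own length away from that of Magel2, had 561 and 688 reads and a TPM of 10.8 (9.91 to 11.7) and 19.7 (18.3 to 21.3). The ratio was 1.83-fold (1.63 to 2.05), and 8.27% of genes had a higher one. The interval of Ndn reached past 2-fold but stayed far below that of Magel2, so these MAGE genes, side by side and on the same strand, differed in the size of the change beyond counting error. Neither gene shares much sequence with others: 0 of 3664 stretches of 31 bases in Ndn and 0.264% of those in Magel2 occur in another annotated transcript. Of the other MAGE genes, 8 had a mean TPM of 1 or more, with 2 higher and 6 lower and a median log2 ratio of -0.13. Ndnl2 (also called Nsmce3), a necdin-like gene further along chromosome 7, stood at a TPM of 45.5 and 47.5 (0.06, and below 0 under other scalings, down to -0.25). Magea4, a gene of the germ line on the X chromosome, had 164 and 6 reads (log2 ratio -4.32) and was the only one past 2-fold.

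Mkrn3 and Peg12 lie beyond Magel2 on the minus strand. Mkrn3 encodes a RING finger ubiquitin ligase that restrains the onset of puberty. It had 430 reads in E14 and 410 in the TA/WT clone, which at the smaller depth of the latter was a TPM of 5.36 (4.86 to 5.89) and 7.62 (6.9 to 8.39). The ratio of 1.42-fold (1.24 to 1.63) was the smallest of the 6, and 19.2% of genes had a higher one. Its relatives with introns did not share the direction, with Mkrn1 at a TPM of 746 and 590 (-0.34) and Mkrn2 at 64.9 and 39.0 (-0.73). The makorin rows therefore went opposite ways, and these relatives were lower under each scaling tried.

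Peg12, also called Frat3, belongs to the Frat proteins, which bind Gsk3 and can hold it off beta-catenin. It had 91 and 98 reads, or a TPM of 1.09 (0.876 to 1.34) and 1.74 (1.42 to 2.13). The ratio was 1.6-fold with a wide interval (1.19 to 2.16), and 12.8% of genes had a higher one. It was the least certain of the 6 ratios because so few reads were counted. Peg12 shares 59 of its 2610 stretches of 31 bases with other transcripts, 50 of them with Frat1, so few reads can be mixed up. Frat1 had a TPM of 4.27 and 3.57 (-0.26) and Frat2 of 7.78 and 8.17 (0.07, and -0.07 at the lowest under other scalings). Across the 7 genes listed for Frat and Gsk3, 5 were higher and 2 lower, none past 2-fold, with Axin2, a target of beta-catenin, the highest at 7.69 and 12.5 (0.70).

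Ube3a encodes the ligase E6AP, which marks proteins for the proteasome. It had the most reads of the 6, with 3787 in E14 and 4726 in the TA/WT clone, or a TPM of 24.5 (23.8 to 25.3) and 45.5 (44.2 to 46.8). The ratio was 1.85-fold (1.78 to 1.94), a log2 ratio of 0.89, and 8.0% of genes had a higher one. It stayed below 2-fold, yet it was the best counted of the 6. The ratio depended on how transcript composition was treated: after removal of the trend of ratios on GC content and transcript length over all genes, the log2 ratio of Ube3a was 0.19.

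Snhg14, the antisense transcript, had 6070 and 7657 reads and a TPM of 7.96 and 15.0, a 1.88-fold difference (1.82 to 1.95). The gene spans overlap over 38.1 kb on opposite strands, and 26.5% of the 31-base stretches of Ube3a occur in other annotated transcripts, mostly in Gm44560, Snhg14 and 9330162G02Rik at the same locus. How strand was handled in the counting is not given in the sources used here, so within the overlap reads of Ube3a and of its antisense partner cannot be told apart. Their sum was 9857 and 12383 reads (log2 ratio 0.90), which follows from the similar ratios of both rows.

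The other listed paternal rows of the region were either higher in the TA/WT clone or without reads. Snord64, a small nucleolar RNA encoded inside Snhg14, went from 15 to 52 reads (5.41-fold, 3.0 to 10.3) on a row of only 46 bases, which makes its TPM unreliable. Together with Snurf and Snhg14 it makes 3 other rows inside the cluster with a mean TPM of 1 or more, and all 3 were higher. Ipw, Snord116, A230057D06Rik and A330076H08Rik, further paternal transcripts, had 0 reads in both libraries. At a floor of 3 reads this allows up to 0.0498 and 0.0673 CPM (reads scaled to the library total) counted to each row. Ipw and Snord116, a row of 90 bases, lie within the span of Snhg14, and how reads were shared among such rows is not given. In libraries of polyadenylated RNA, 0 counted reads therefore do not show that these transcripts were absent.

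Outside the cluster Atp10a, a lipid flippase gene next to Ube3a whose maternal bias in mice is debated, had 421 and 1040 reads and a TPM of 2.44 and 9.01 (3.69-fold, 3.29 to 4.15). Further along, Gabra5 had 14 and 32 reads and Gabrg3 0 and 6, and the pigment gene Oca2 had 0 in both. Within 5 Mb either side of the members, 31 other genes had a mean TPM of 1 or more, of which 19 were higher and 12 lower with a median log2 ratio of 0.14. The sign of 7 of the 31 changed under at least 1 other scaling. The 28 outside the cluster had a median of 0.09, against 0.04 over 13269 genes of the genome and -0.07 over 1086 on chromosome 7. Past 2-fold among these 28 were Atp10a and, in the other direction, Trpm1, which had 340 and 9 reads (-5.75). The 270 other single-exon coding genes with the same mean TPM had a median of -0.03, with 8.15% more than 2-fold higher and 16.3% lower. Over all genes at that level these shares were 5.86% and 8.44%. The 107 single-exon genes that passed the study's minimum of 10 had a median of 0.17, with 65 higher and 42 lower and 9.35% past 2-fold in each direction.

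**Figure D2:**
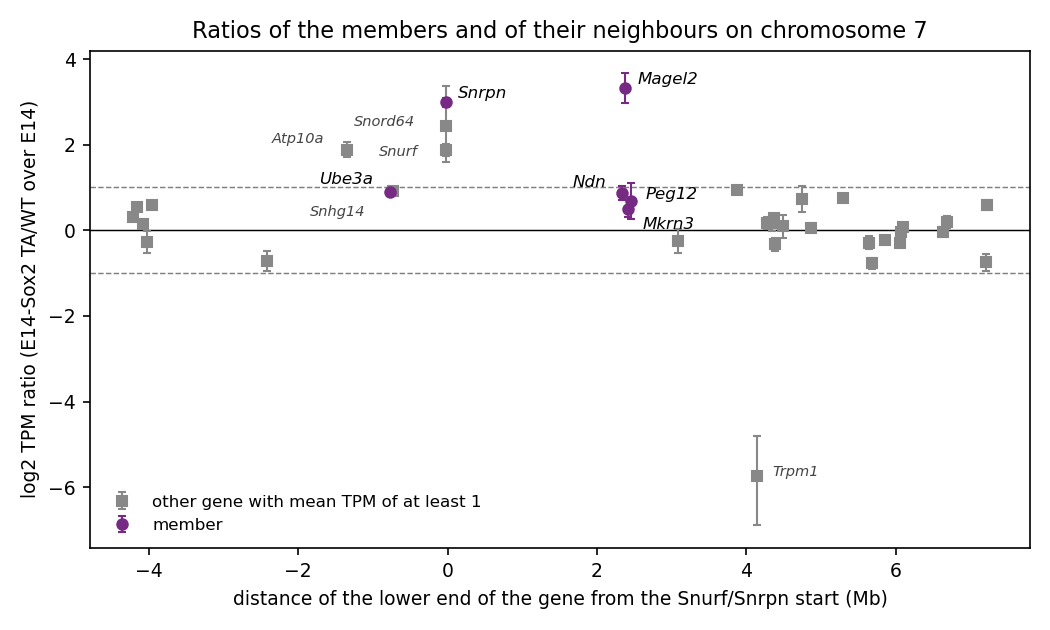
Log2 ratio of TPM (E14-Sox2 TA/WT over E14) against the distance in Mb between the lower end of each gene and the start of Snurf and Snrpn, for the 6 members (purple) and 31 other genes with a mean TPM of 1 or more (grey); bars are 95% counting intervals and dashed lines mark 2-fold. Snrpn (2.99) and Magel2 (3.31) stand above the genes on either side, and the other 4 members lie between 0.51 and 0.89.

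Imprinted genes elsewhere in the genome were set beside the members from lists written with earlier results of these data known. Of 16 paternally expressed genes of other regions with a mean TPM of 1 or more, 12 were higher and 4 lower, 7 passed 2-fold upward and 1 downward, and the median log2 ratio was 0.78. The highest were Peg10, a retrotransposon-derived gene needed in the placenta (TPM 59.4 and 470, log2 ratio 2.98), and Plagl1, a zinc finger gene (1.41 and 9.03, 2.68). The lowest was Usp29, at 1.79 and 0.772 (-1.21). Of 17 genes listed as maternally expressed, 7 were higher and 10 lower, with 5 and 3 past 2-fold and a median of -0.06. Among those past 2-fold upward, Meg3, Rian and Mirg lie close together on chromosome 12. Inpp5f of the paternal and Gnas of the maternal list changed sign under other scalings. The noncoding RNAs Mirg (2.33) and H19 (1.94) stood at the upper end, and Slc22a18 (-2.06) and Ascl2 (-1.45) at the lower. The median over the 6 members was 0.88, above 0.04 for all genes, but with so few genes it describes these members only.

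Genes that keep imprints stayed under 2-fold on the deposited TPM. All 17 listed genes had a mean TPM of 1 or more, and 16 were higher, though 4 of those (Zfp57, Arid4a, Cbx5 and Kdm1b) were lower under at least 1 other scaling. The list median was 0.43. Zfp57, the factor whose site core stands at the Snrpn start, had a TPM of 422 and 440 (0.06). Trim28, its corepressor, had 776 and 1070 (0.46), and Dnmt1, the maintenance methyltransferase, 120 and 161 (0.43). Dppa3, which guards methylation in the early embryo, had the highest ratio of the list at 6.17 and 12.2 (0.98, interval 1.6 to 2.44-fold, and up to 1.15 under other scalings), followed by Cbx3 (0.85). Setdb1, the histone methyltransferase that works with Trim28, was the lowest at 74.8 and 74.0 (-0.02). Methylation itself was not measured in these libraries.

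**Figure D3:**
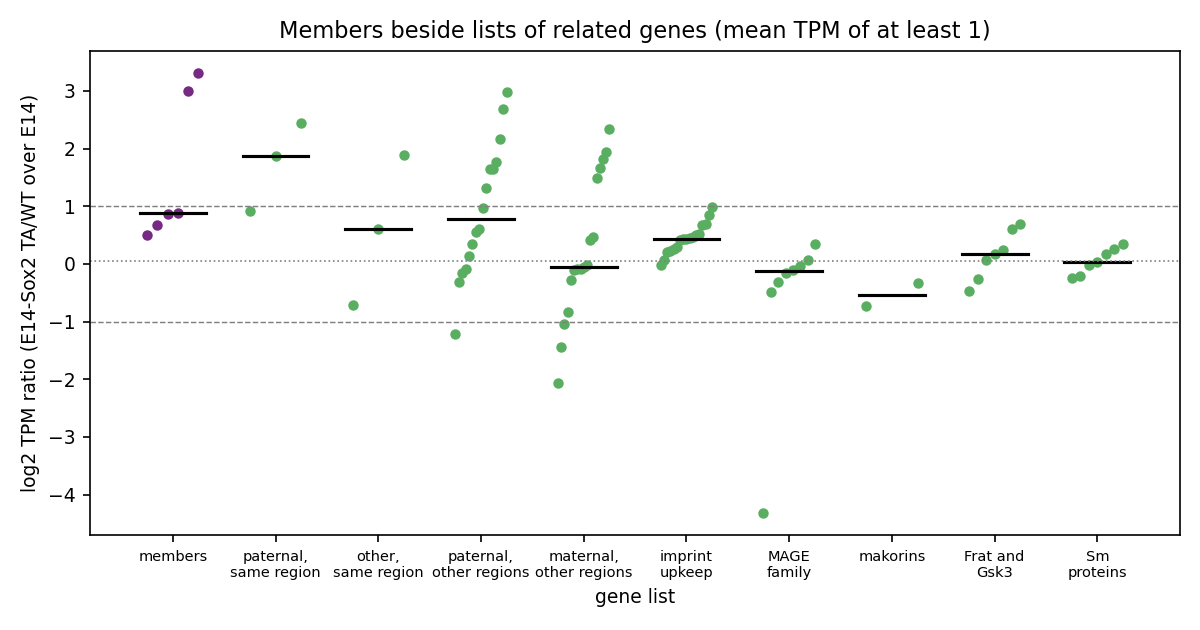
Log2 ratio of TPM (E14-Sox2 TA/WT over E14) of each gene with a mean TPM of 1 or more in the members (purple) and in 9 lists of related genes (green), with the median of each list as a black bar, the median of all genes as a dotted line and 2-fold as dashed lines. All 6 members lie above 0, the genes of other regions listed as maternally expressed fall on both sides, and the genes of imprint upkeep lie between -0.02 and 0.98.

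Markers of other cell types differed between the libraries as well. Of 5 neural progenitor markers, Nes (TPM 6.67 and 36.2), Pax6 (0.396 and 2.33) and Sox1 (3.80 and 10.7) were more than 2-fold higher in the TA/WT clone, and Olig2 had 7 and 0 reads. The summed TPM of the list was 11.4 in E14 and 49.8 in the TA/WT clone. The 6 neuron markers summed to 334 and 262, nearly all of it Stmn2, and the 3 with a mean TPM of 1 or more had a median log2 ratio of 0.85. Map2 (2.65 and 5.07) and Syp (2.13 and 3.85) were higher in the clone, and Rbfox3, which marks mature neurons, was at 1.0 and 0.684. The 5 primitive endoderm markers went the other way, from 34.9 to 9.08. The 8 fibroblast markers summed to 43.2 and 17.0, which was set by Thy1 (40.1 and 11.4). The collagen genes Col3a1 (15 and 151 reads) and Col1a2 (43 and 109 reads) were higher in the clone, Col1a1 was at a TPM of 2.66 and 2.95, and Postn, Dcn and Lum had 0 reads in both. The 5 trophoblast markers summed to 56.4 and 27.0, which was set by Tfap2c (50.9 and 16.1). Eomes (2.57 and 7.34) and Gata3 (0.322 and 0.733) were higher, Hand1 was at 2.59 and 2.90, and Elf5 had 0 reads in both. Several of the 6 genes are known to be abundant in brain, and the part of these cells in the ratios was not tested. In bulk RNA, more cells of a type and more RNA per cell cannot be told apart.

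The direction of all 6 ratios was kept under 9 other ways of scaling the values. For most of these that was fixed in advance. A pseudocount keeps the sign, and the scalings by library mostly move all genes together by a small amount. The GC and length correction is the main one that acts gene by gene. Scaling to CPM, or taking the FPKM ratio, lowered the median of all genes by 0.14 on the log2 scale and the members with it. Snrpn ranged from 2.84 to 2.997, Magel2 from 2.08 to 3.40, Ndn from 0.71 to 0.86, Mkrn3 from 0.36 to 0.53, Peg12 from 0.39 to 0.88 and Ube3a from 0.19 to 0.89. Snrpn and Magel2 stayed past 2-fold throughout, and no other member reached it.

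**Figure D4:**
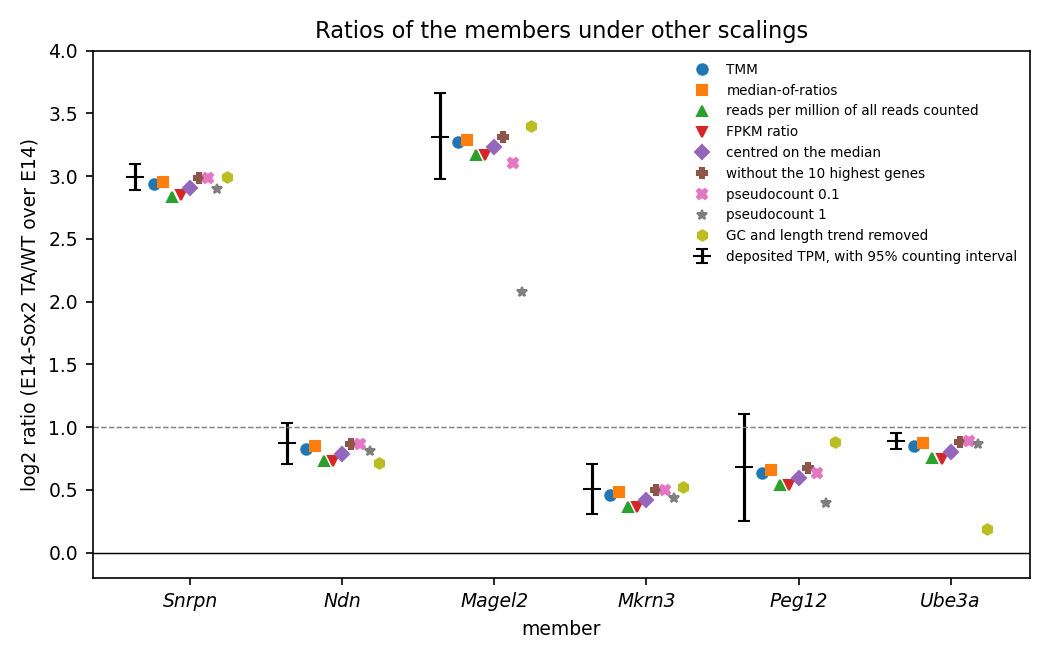
Log2 ratio (E14-Sox2 TA/WT over E14) of each member from the deposited TPM with its 95% counting interval (black) and under 9 other scalings (coloured symbols), with 2-fold as a dashed line. Every symbol lies above 0, the pseudocount of 1 lowers Magel2 to 2.08, and the GC and length correction lowers Ube3a to 0.19.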

How the data were processed

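RNA-seq of 1 library per genotype was analysed from a gene table of 24532 rows. Per the submitters' processing notes, bcl2fastq 2.20.0, Trimmomatic, HISAT2 2.1.0 and StringTie 2.1.3b were used; the notes list the builds hg19 and mm10, and the table is for mm10. The authors deposited raw read counts, as integers. The FPKM deposited by the authors are scaled per kilobase and to the fragments of the library, and the TPM deposited by the authors to library sums that came to 993247 (E14) and 994155 (TA/WT clone). The handling of strand and of multi-mapping reads is not given in the sources used here. No column of values was left out.

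Members and lists (19 in all) were chosen with earlier results of these data known. Ratios of deposited TPM were taken without a pseudocount. Intervals at 95% came from the read counts by the Clopper-Pearson method (Poisson for levels) and cover counting error only. They were tested on counts simulated under the Poisson model that they assume, which checks the calculation and not these reads. PCR reads are not independent molecules, so the intervals can be too narrow even for counting. A mean TPM of 1 or more was required in lists and neighbourhoods. Other scalings used TMM factors (edgeR 4.0.16), median-of-ratios factors (DESeq2 1.42.0, R 4.3.3), FPKM, CPM, pseudocounts, centring, rescaling without the 10 highest genes, and removal of a GC and length trend (20 bins each). Positions and promoters are from RefSeq (GRCm38.p6, 24462 Entrez IDs matched), and exons and shared 31-base stretches from GENCODE M21. The CGCATGCG motif and the filter on E14 alone were chosen after seeing the data. All members were named. Of lists over 8 genes, the 2 highest, the 2 lowest and those past 2-fold could be named, and Zfp57, Trim28 and Dnmt1 were picked besides, after their values had been seen, as were genes whose sign changed. Protein sequences were not used here, and a few genes of the lists are not reported here by name.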

Additional observations from a re-analysis of the deposited data

How the results depend on the processing

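With 1 library per genotype no replicate could be left out, and no paired analysis was possible because each genotype had 1 library. The log2 ratio of Snrpn was 2.84 as CPM and 2.85 from FPKM, and that of Ube3a 0.75 under each. These values mostly follow the shift of all genes by -0.14 under this pair of scalings. Centred on the median, which moved all genes by -0.085, Ube3a came to 0.81. Summed with Snurf on the TPM scale, Snrpn came to 2.62, which follows from the lower log2 ratio of the Snurf row (1.875). Ube3a came to 0.19 without the GC and length trend, and Magel2 to 2.08 with a pseudocount of 1. The cause of the former was not tested, and the latter follows from the low TPM. Members more than 2-fold higher numbered 2 at a TPM of no less than 1, 2 at 5 and 2 with no filter, beside 6.45%, 4.74% and 10.1% of all genes, and 3 past 1.5-fold, beside 14.2%. Magel2 passes the minimum of 1 or of 5 only through the library in which it is high. No member was more than 2-fold lower under any setting. Over all genes, 886 were higher and 1366 lower at a TPM of no less than 1, 1836 and 3388 with no filter, 1291 and 955 past 1.5-fold, and 104 and 136 past 3-fold, with 510 and 597 at a TPM of no less than 5 and 271 and 212 at 20. The median of the neighbours was 1.88 within 1 Mb, where few genes remain, and 0.29 at a TPM of no less than 10. Depth limits Peg12 and Magel2 most, with under 100 reads each in E14.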

Other observations

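Known partners of the members were also counted, from lists written with earlier results in view. Of 10 genes found in the table for the partners of Magel2 (Trim27, Usp7, retromer and the WASH complex), 8 were higher and 2 lower, none past 2-fold, with a median log2 ratio of 0.46. E430025E21Rik, which encodes strumpellin of the WASH complex, had a TPM of 68.1 and 124 (0.86), and Usp7, the deubiquitinase that binds Trim27, had 155 and 260 (0.74). Ccdc53, another WASH subunit, was the lowest at 52.1 and 32.3 (-0.69), so subunits of this complex went both ways. Fam21 and A230046K03Rik changed sign under other scalings.

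Of 8 partners of necdin, 5 were higher and 3 lower with a median of 0.22. Trp53, which encodes p53, had 15820 and 17910 reads (0.77 on the TPM scale). E2f1, Hnrnpu and Bmi1 changed sign under other scalings. Of 9 partners and substrates of Ube3a, 6 were higher and 3 lower with a median of 0.24, none past 2-fold. Mapk6 was the highest at 71.5 and 128 (0.84), Herc2, which activates Ube3a, had 12.0 and 18.2 (0.60), and Arc, an early response gene, was the lowest at 30.9 and 17.8 (-0.79). The 4 genes at the nonimprinted flank (Tubgcp5, Cyfip1, Nipa2 and Nipa1) had a median of 0.22 with none past 2-fold, and the sign of Nipa2 changed under other scalings.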
